A study of Mus musculus with 4 samples.

Results

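The genes described here encode 5 enzymes that detoxify quinones, carbonyls, unsaturated aldehydes and ketones, and epoxides. They are Nqo1, Cbr3, Aox1, Ptgr1 and Ephx1, and they were taken by gene name from a table of 1940 genes with Nrf2 binding intervals in or near them. The transcription factor Nrf2, encoded by Nfe2l2, was profiled in mouse esophagus by chromatin immunoprecipitation and sequencing (ChIP-seq). The libraries came from C57BL/6 mice of 3 genotypes. These were wild-type, Nrf2KO (a knockout of Nrf2) and Keap1KO (a knockout of Keap1), each with 1 library made with the same Nrf2 antibody, and a pooled input DNA library was not analysed here. The labels used here do not state the age of the animals, how many were pooled, or whether the knockouts were limited to a cell type.

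In an unstressed cell the adaptor protein Keap1 holds Nrf2 and hands it to a ubiquitin ligase for degradation. Electrophiles and oxidants modify Keap1, after which Nrf2 accumulates, pairs with a small Maf protein and binds antioxidant response elements. Genes for quinone, carbonyl and epoxide metabolism are among its classical targets. The squamous lining of the esophagus meets swallowed irritants directly, and Keap1 loss there is known to keep Nrf2 active.

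Each enzyme removes a different reactive group. Nqo1 reduces quinones by a pair of electrons and so bypasses the semiquinone radical. Cbr3 is a carbonyl reductase of the short-chain dehydrogenase family that uses NADPH. Aox1 is a molybdenum-containing aldehyde oxidase. Ptgr1 reduces the double bond beside a carbonyl in prostaglandins, leukotriene B4 metabolites and reactive alkenals. Ephx1, the microsomal epoxide hydrolase, opens epoxides with water to give diols.

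The upstream sequence is shown for the 3 genes whose interval lay closest above the start, as the 250 bases before the RefSeq start site in GRCm38.p6, 5′ to 3′ along the gene. The Aox1 window holds the position of its tallest interval, and those of Nqo1 and Cbr3 show the part next to the start of the stretch below their interval, whose position lies above the window. Capitals mark a TGANTCA element found by search, and the same search found none in the other windows.
Aox1 (chr1:58029719-58029968, plus strand): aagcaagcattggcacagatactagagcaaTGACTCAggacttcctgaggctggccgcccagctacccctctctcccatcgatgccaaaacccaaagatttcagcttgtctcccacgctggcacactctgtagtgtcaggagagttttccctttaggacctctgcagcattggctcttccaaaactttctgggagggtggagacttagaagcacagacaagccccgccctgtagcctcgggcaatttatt
Nqo1 (chr8:107403206-107403455, minus strand): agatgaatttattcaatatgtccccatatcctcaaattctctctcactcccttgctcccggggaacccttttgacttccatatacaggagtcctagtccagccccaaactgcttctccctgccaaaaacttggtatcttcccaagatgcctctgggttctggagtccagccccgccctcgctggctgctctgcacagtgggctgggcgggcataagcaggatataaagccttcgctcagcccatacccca
Cbr3 (chr16:93682969-93683218, plus strand): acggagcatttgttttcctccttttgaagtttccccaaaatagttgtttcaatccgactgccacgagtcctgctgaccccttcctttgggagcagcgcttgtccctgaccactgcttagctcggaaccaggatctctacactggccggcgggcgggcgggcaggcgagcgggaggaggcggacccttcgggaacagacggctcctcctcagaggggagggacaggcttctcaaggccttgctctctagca

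The deposited signal is an average peak height per gene, with no stated unit or scaling between libraries and with unknown depth. Heights below are per locus, that is, per region or group of regions listed under the same genes, so that a region shared by neighbouring genes counts once. At a locus of several regions the height is their mean, so ranks set single regions beside means. Of the loci, 1279 have 1 region. The whole table gave 1460 loci, with median heights of 4.33 in Nrf2KO, 5 in wild-type and 18 in Keap1KO. The 5 enzyme genes had 8 intervals, all of them called in Keap1KO and none in wild-type or Nrf2KO, and these made 7 loci. A call in some library is how a gene enters the table, and Keap1KO calls cover 99.2% of all 1684 regions, wild-type calls 3.33% and Nrf2KO calls 0.00%. Loci thus entered with Keap1KO heights selected upwards, which raises every ratio with Keap1KO on top. Heights near genes do not check either deletion. With 1 library per genotype there is no replicate error, no test between genotypes was possible, and differences below are between single libraries.

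Nqo1 had the tallest locus of the 5 genes. It lay 427 bp upstream of the gene start on chromosome 8 (position 107403632, mm10; GeneID 18104), with a height of 6 in Nrf2KO, 12 in wild-type and 105 in Keap1KO. Keap1KO was the high library and Nrf2KO the low one. On the scale of log2(height + 1), used for all ratios here, Keap1KO exceeded wild-type by 3.03 and Nrf2KO by 3.92, and wild-type exceeded Nrf2KO by 0.89. The Keap1KO height ranked 5 among the 1460 loci and 3 among the 454 loci within 1 kb of a listed gene start. In wild-type the same locus ranked 47, above 94.9% of all loci, and in Nrf2KO it ranked 415, above 63.5%.

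The interval is also listed under Nob1, which encodes a nuclease of ribosome assembly, because it lies beyond the end of that gene. It was 21406 bp from the start of Nob1. Of all RefSeq starts that of Nqo1 was the nearest to it.

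At Aox1 the 2 intervals were of very different height. The first lay 209 bp upstream of the gene start (chromosome 1, position 58029760; GeneID 11761) and had 8 in Nrf2KO, 11 in wild-type and 86 in Keap1KO. The second lay 71791 bp into the gene, at 93.9% of its length (position 58101760), with 2, 4 and 17 in the same order. At both intervals Keap1KO was highest and Nrf2KO lowest. Keap1KO over wild-type came to a log2 ratio of 2.86 at the first and 1.85 at the second, and wild-type over Nrf2KO to 0.42 and 0.74. The deposited row for Aox1 gives only their mean, 5 in Nrf2KO, 7.5 in wild-type and 51.5 in Keap1KO, and the heights were separated because the first interval is also listed, alone, under Sgol2. Sgol2 is the neighbouring gene for a shugoshin, a protector of centromeric cohesion.

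The nearest RefSeq start to the second Aox1 interval was that of Aox3, the next aldehyde oxidase gene, 11376 bp beyond the interval. The table lists intervals to at most 10586 bp upstream of a gene, and Aox3 has no row in it. The aldehyde oxidase genes are close relatives that lie side by side, and how reads matching several of them were handled is not given in the sources used here.

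Cbr3 stood out by its height in wild-type. Its interval lay 723 bp upstream of the start (chromosome 16, position 93682496; GeneID 109857), with 9 in Nrf2KO, 20 in wild-type and 81 in Keap1KO. The wild-type height ranked 7 of 1460, the Keap1KO height 13 and the Nrf2KO height 137, tied with 66 other loci. Of the 1405 loci not called in wild-type, 2 had a wild-type height of at least 20, this one and the locus listed under Gys1, Ftl1 and Bax (7 in Nrf2KO, 20 in wild-type, 118 in Keap1KO). Among the 55 loci that were called in wild-type the median was 13, and 48 were lower than Cbr3.

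The log2 ratio of Keap1KO over wild-type at Cbr3 was 1.97, or 3.90-fold, the lowest of the 3 loci near starts. The ratio of wild-type to Nrf2KO was 1.07, the highest of the 7 loci, also with a pseudocount of 5 (0.84) and with each library divided by its own median height (0.88). Among all 1460 loci the ratio of 1.07 ranked 199. Cbr1, the paralogous carbonyl reductase gene, ends 72870 bp before the Cbr3 start in RefSeq and has no row in the table.

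**Figure D1:**
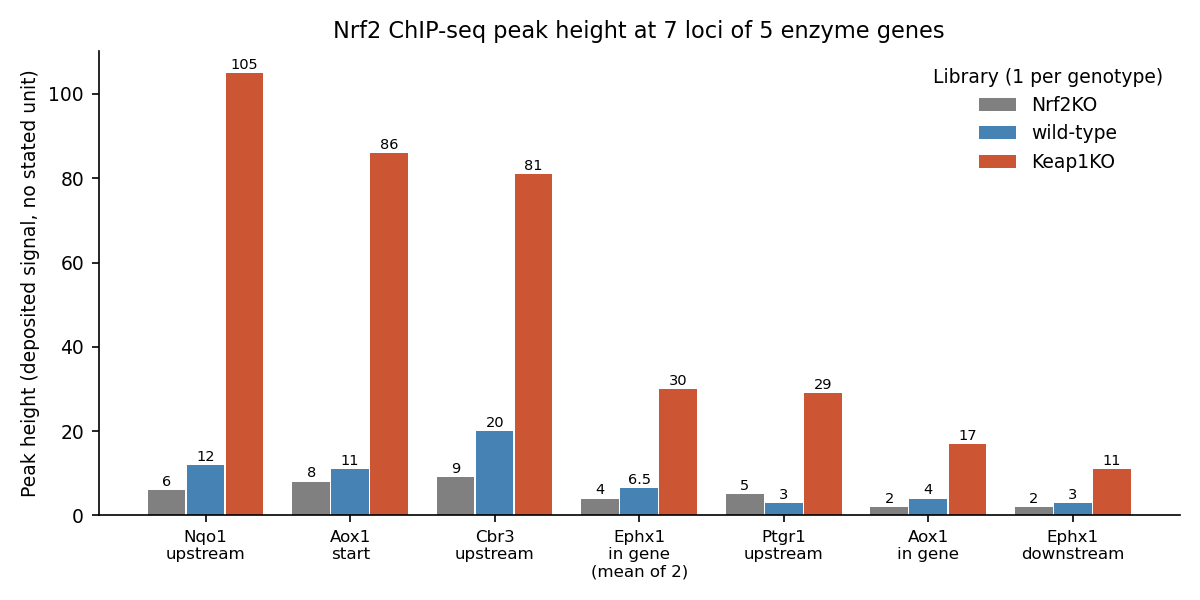
Peak height in the 3 libraries (vertical axis, deposited signal without a stated unit) at the 7 loci of the 5 genes, 1 bar per library with its height printed above. The 3 loci just upstream of Nqo1, Aox1 and Cbr3 reach 81 to 105 in Keap1KO, the other 4 reach 11 to 30, and wild-type lies above Nrf2KO at every locus but Ptgr1. The bars of the in-gene Ephx1 locus are means of 2 regions.

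Ptgr1 had a single interval, 3898 bp upstream of its start (chromosome 4, position 58990976; GeneID 67103). The height was 5 in Nrf2KO, 3 in wild-type and 29 in Keap1KO, and it is the only locus of the 7 where wild-type was below Nrf2KO. The Keap1KO height was above that of 86.0% of all loci, while the wild-type height was above that of 12.3%. Keap1KO stood above wild-type by a log2 ratio of 2.91 and above Nrf2KO by 2.32, and that of wild-type to Nrf2KO was −0.58. At a wild-type height of 3 the ratio depends on the pseudocount, and it was 2.09 with a pseudocount of 5. No other RefSeq start was closer to the interval, the next being that of Dnajc25 at 12217 bp.

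Ephx1 had the most intervals, 3, and none of them at the gene start. In its own row they lie 1607 and 7607 bp into the gene and 35799 bp from the start, beyond the gene end (chromosome 1, positions 181015888, 181009888 and 180981696; GeneID 13849). The 2 regions in the gene are listed under Ephx1 alone and had a mean height of 4 in Nrf2KO, 6.5 in wild-type and 30 in Keap1KO. The table gives 46 as the tallest Ephx1 region, in Keap1KO, so the heights of these 2 regions there were 46 and 14, and which of the 2 was the taller is not given. The mean was 4.13-fold higher in Keap1KO than in wild-type and 6.20-fold higher than in Nrf2KO.

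The region beyond the end of Ephx1 is shared with Tmem63a, which encodes a membrane protein of a family of stretch-activated channels. It had 2 in Nrf2KO, 3 in wild-type and 11 in Keap1KO, the lowest of the 7 loci in Keap1KO, and only 3.01% of all loci were lower there. Keap1KO was the high library at both Ephx1 loci, with log2 ratios to wild-type of 2.05 in the gene and 1.58 beyond its end. The gene starts farther upstream in RefSeq than in the deposited table, so the closest interval is 1681 bp from the RefSeq start and 1607 bp from the listed one.

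**Figure D2:**
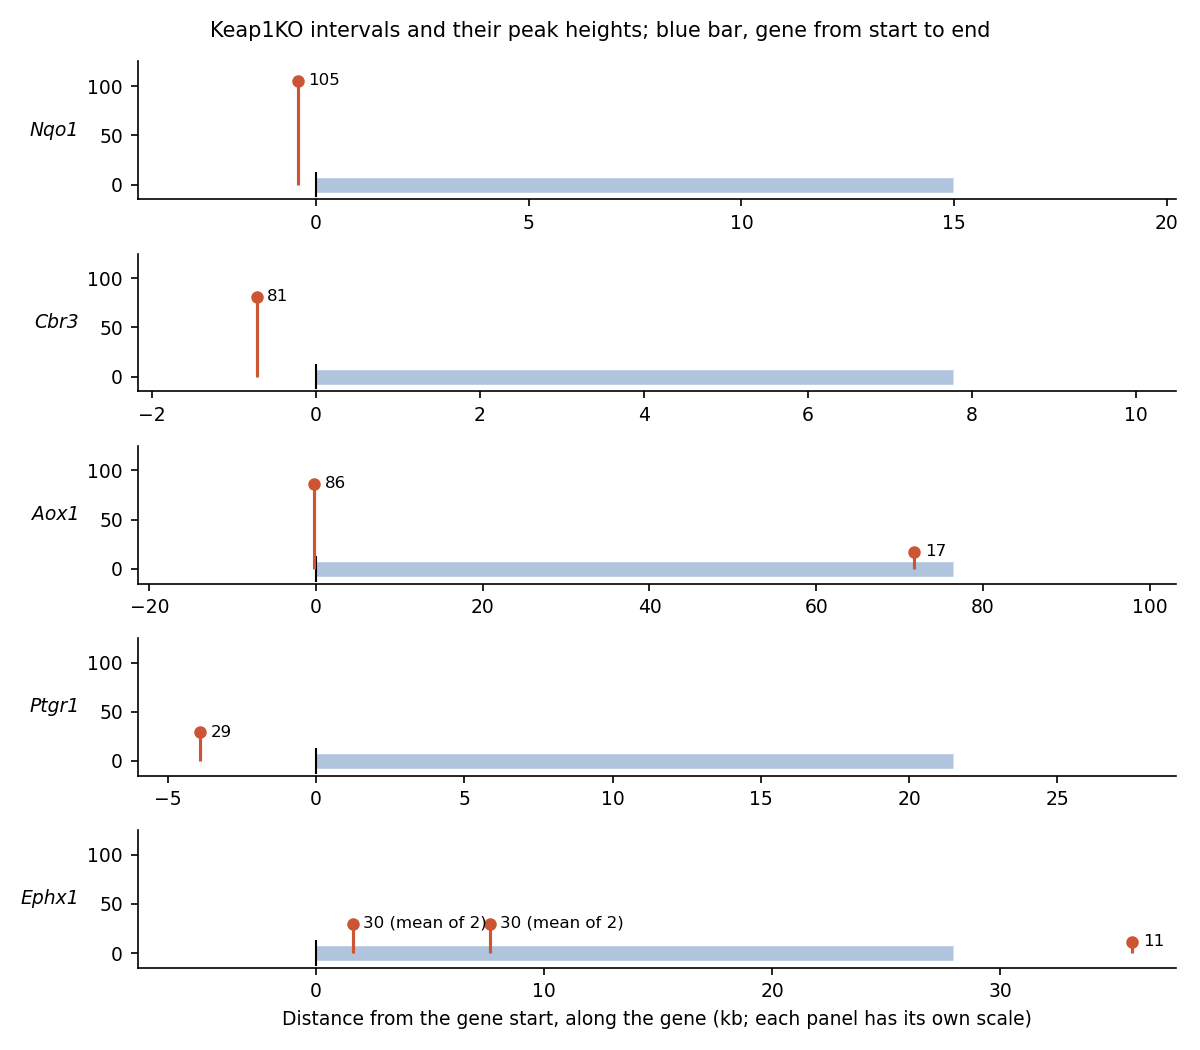
Position of each interval along its gene (horizontal axis, kb from the gene start, with a scale of its own in each panel) and its Keap1KO peak height (vertical axis, deposited signal without a stated unit); the blue bar is the gene from start to end. Nqo1, Cbr3 and Aox1 have a tall interval less than 1 kb above the start, whereas the intervals of Ptgr1 and Ephx1 lie more than 1 kb from it and are lower; the 2 Ephx1 regions in the gene are drawn at their mean of 30.

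A limit of 1 kb from a start, chosen after seeing the data, split the 7 loci by height. The 3 loci within 1 kb of a start had Keap1KO heights of 81, 86 and 105, and the 4 farther away had 11, 17, 29 and 30, so the ranges did not overlap. The wild-type heights did not overlap either, at 11 to 20 against 3 to 6.5, nor did the Nrf2KO heights, at 6 to 9 against 2 to 5. The values of 30, 6.5 and 4 for Ephx1 in the gene are means of 2 regions. In Keap1KO these regions had 46 and 14, still below 81. In wild-type and Nrf2KO their separate heights are not given, so whether a single region overlaps there cannot be said. Among all loci 31.1% lay within 1 kb of a start. The median heights of these 454 and of the 1006 farther ones were 7 and 4 for the Nrf2KO library, 6.58 and 4.5 for wild-type, and 17 and 18 for Keap1KO. Over the table, loci near starts were thus higher by median in Nrf2KO and wild-type, as among the 7, and not in Keap1KO.

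For Keap1KO over Nrf2KO the median log2 ratio came to 1.29 over the 454 loci within 1 kb of a start and to 2.17 over those farther away. Nqo1, Cbr3 and Aox1 near their starts had 3.92, 3.04 and 3.27, and the 4 farther loci had 2 to 2.63. The enzyme loci near starts therefore stood above the median of their position class and the farther ones on both sides of theirs.

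All 7 loci were at least 2-fold higher in Keap1KO than in wild-type, with log2 ratios of 1.58 to 3.03 and a median of 2.05. Over all 1460 loci 88.0% met that rule and the median was 1.74, so the count by itself is near the background of the table. The 5 genes, each at its tallest locus, had a median of 2.86. That locus was picked by mean height over the libraries, which favours a high Keap1KO height. No such pick was made over all loci, so 2.86 cannot be set against 1.74. Among single loci the ratio ranked 54 at Nqo1, 67 at Ptgr1, 85 at the Aox1 start, 465 at the in-gene locus of Ephx1, 527 at Cbr3, 617 at the in-gene locus of Aox1 and 816 beyond the end of Ephx1. Nqo1 and Ptgr1 thus had similar ratios with a pseudocount of 1, 3.03 and 2.91, with Keap1KO heights of 105 and 29. With a pseudocount of 5 these ratios were 2.69 and 2.09. With each library divided by its own median height, which takes out the general difference between libraries, Nqo1, Ptgr1 and the Aox1 start remained at least 2-fold higher, with log2 ratios of 1.21, 1.18 and 1.05, as did 9.11% of all loci.

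Against Nrf2KO, the background of the antibody without its target, Keap1KO was at least 2-fold higher at all 7 loci too, where 85.3% of all loci met the rule. The log2 ratios ran from 2 to 3.92 with a median of 2.63, against 1.91 over all loci. Nqo1 had the largest, 15.1-fold, and the region beyond Ephx1 the smallest, 4-fold. The Nqo1 ratio ranked 44 of 1460, that at the Aox1 start 130 that at Cbr3 190, and those at the 4 farther loci between 329 and 657. After division by the library medians Nqo1 (1.93), the Aox1 start (1.28) and Cbr3 (1.05) remained at least 2-fold higher, as did 17.7% of all loci.

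At 6 of the 7 loci wild-type was the higher of wild-type and Nrf2KO, as it was at 53.8% of all loci. It was at least 2-fold higher at 1, Cbr3, with 2.1-fold, where 18.8% of all loci met the rule. With a pseudocount of 5 this held at 0 of the 7 and at 3.97% of all loci. After division by the library medians it held at 0 and at 13.3%. The median log2 ratio was 0.58 over the 7 loci and 0.19 over all. Without replicates or depth it cannot be said whether such differences exceed the variation between libraries.

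**Figure D3:**
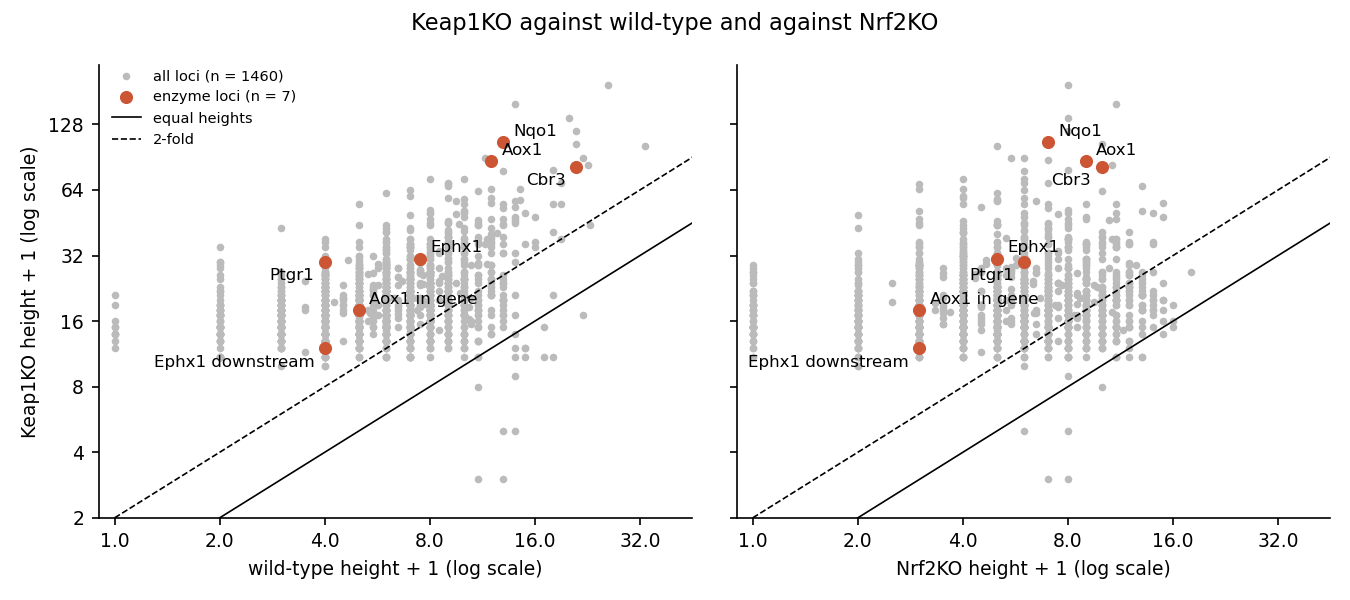
Keap1KO height + 1 against wild-type height + 1 (left) and Nrf2KO height + 1 (right), on log scales, for all 1460 loci (grey) and the 7 enzyme loci (orange); the solid line marks equal heights and the dashed line 2-fold. All 7 lie above the 2-fold line in both panels, Nqo1, Aox1 and Cbr3 near the top of the cloud, and Ptgr1 and the lower Aox1 and Ephx1 regions inside it.

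Of all loci, 13 reached a height of 80 in Keap1KO, a limit set after the heights were seen, and 3 of them were those of Nqo1, Aox1 and Cbr3. Loci of several regions were counted by their mean, so a single region of at least 80 within them can be missed. The wild-type heights of the 13 ran from 10.5 to 32 with a median of 20, and the Nrf2KO heights from 4 to 10 with a median of 7. Nqo1 and the Aox1 start, with 12 and 11, were in the lower part of that wild-type range, and Cbr3, with 20, in the middle. Of the 13, 7 were called in wild-type, and the 3 enzyme loci were among the 6 that were not.

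**Figure D4:**
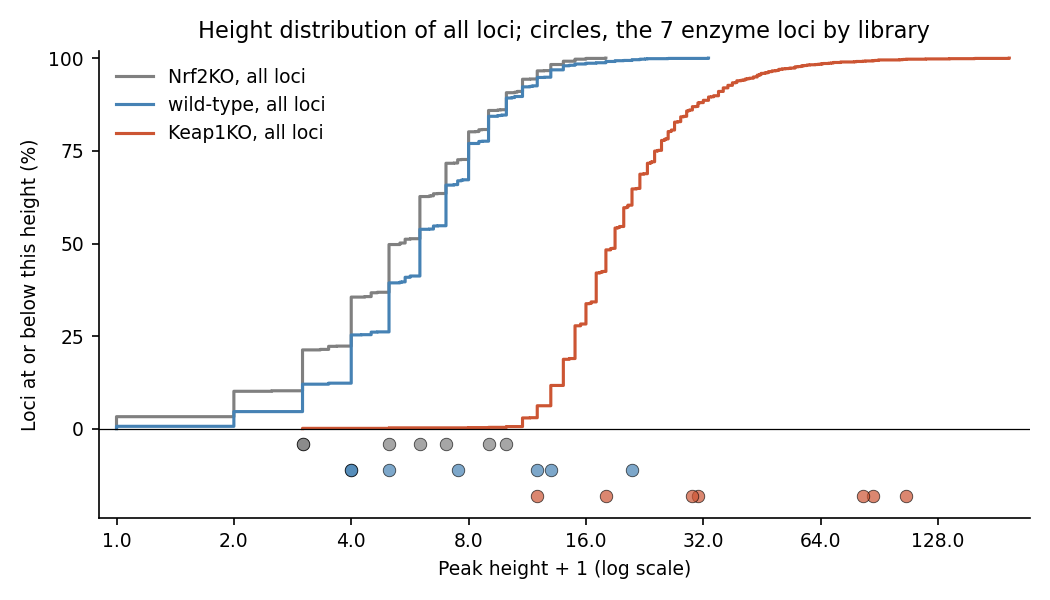
Share of the 1460 loci at or below a given peak height (vertical axis, percent; horizontal axis, height + 1 on a log scale) in each library, with the 7 enzyme loci of the same library as circles under the curves. In Keap1KO 3 circles lie at the far end of the curve, 2 above 86.0 and 87.0% of the loci, and 2 below its median of 18, while the wild-type and Nrf2KO circles are spread over most of their curves.

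The loci most like each gene over the 3 libraries were found by the sum of the absolute differences in log2(height + 1), a likeness over 3 values only. Loci of the 5 genes themselves were left out of the search. For Nqo1 the nearest was the locus listed under Osgin1, a stress-induced growth regulator, and Necab2. It had 6 in Nrf2KO, 11 in wild-type and 87 in Keap1KO, with a summed difference of 0.38. Next was the locus of Txnrd1, thioredoxin reductase, and Eid3 (5, 12 and 77 as means of 2 regions, summed difference 0.66). The locus of Osgin1 and Necab2 was also the nearest to the Aox1 start (0.38), followed by that of Tmc6 and Tmc8 (9, 10 and 62, summed difference 0.74). Cbr3 was closest to the locus listed under Neat1, Gm9783 and Frmd8 (9.67, 21.7 and 82.3 as means of 3 regions, summed difference 0.23). Next was that of Prdx1, a peroxiredoxin, and AV051173 (9, 20 and 103, summed difference 0.34).

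As with the tall loci, the neighbours in pattern of the lower loci are not on the list of related enzymes looked up below. With the 5 genes left out, only 3 genes of that list could have appeared, so their absence says little. Ptgr1 was closest to Agbl4 (5, 3 and 27; 0.10) and to the locus of Itpkc and Adck4 (5, 3 and 23; 0.32). The in-gene locus of Ephx1 was closest to Gm5526 (4, 6.5 and 28.5 as means of 2 regions, summed difference 0.07). Next was 9130015L21Rik (4, 7 and 32, summed difference 0.18). Along the chromosome, the nearest listed gene without a shared interval was Gm5678 for Cbr3, 52756 bp away (1, 2 and 19), and AI314180 for Ptgr1, 52865 bp away (means of 5.67, 5.33 and 19.33 over its regions).

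A list of 33 genes of quinone, carbonyl, aldehyde oxidase, alkenal and epoxide metabolism, including the molybdenum cofactor genes that aldehyde oxidase needs, was looked up to see how far binding extended over the pathway. Of the 33, 8 had a locus (24.2%), against 7.67% of 21900 protein-coding genes, but 5 of the 8 are the genes described above. Of the other 28, 3 had one (10.7%). These 3 were Aox2, listed under its older symbol Aox3l1, Mocs1 and Mocos. The list was drawn up with earlier results of these data known, so these shares are a description only. Aox3, Aox4, Xdh, Suox, Mocs2 and Gphn, which also encode molybdenum enzymes or make their cofactor, had no row.

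The Aox2 interval lay 81386 bp into the gene, with 1 in Nrf2KO, 5 in wild-type and 21 in Keap1KO. Mocs1, which carries out the first step of molybdenum cofactor synthesis, had 5, 5 and 27 at 4164 bp into the gene. Mocos, the sulfurase that activates the cofactor for aldehyde oxidase and xanthine dehydrogenase, had 4, 5 and 28 at its start, 5 bp in. All 3 were at least 2-fold higher in Keap1KO than in wild-type (3.67-, 4.67- and 4.83-fold), as were 88.0% of all loci. They were so over Nrf2KO too (11-, 4.67- and 5.80-fold), as were 85.3% of all loci. The counts are thus near the background of the table. Wild-type was at least 2-fold above Nrf2KO at Aox2 only, on heights of 5 and 1, where 18.8% of all loci met the rule.

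The 25 list genes without a row in the table include paralogs of every enzyme family here. They are Nqo2 beside Nqo1, Cbr1, Cbr2 and Cbr4 beside Cbr3, Aox3 and Aox4 beside Aox1, Ptgr2 beside Ptgr1, and Ephx2, Ephx3 and Ephx4 beside Ephx1. Of the family members on the list, Nrf2 intervals were thus listed for 1 in each of 4 families and for Aox1 and Aox2 among the aldehyde oxidases. Nqo1, Cbr3, Aox1, Ptgr1 and Ephx1 were themselves taken from the table, and the families were chosen around them. That each family has a gene with an interval is therefore fixed by the choice and is not a result. The table holds no values for genes without a row, so nothing can be said of their heights. Of the Keap1KO interval numbers 38.8% have no row, with no reason given. Whether the 25 genes had a called interval therefore cannot be said.

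The promoter windows of RefSeq, which run from 250 bases before to 50 after a start, were searched on both strands. The core of the antioxidant response element was written as TGACNNNGC, and it stood in 12.4% of the 32851 windows of the genome. It stood in 38.7% of the 168 windows that contain the position of a called interval. None of the 5 enzyme windows held it, nor the looser TGANNNNGC, of which it is a special case and which 41.3% of all windows and 58.3% of the 168 held. Only the Aox1 window contains an interval position; the positions at Nqo1 and Cbr3 lie 177 and 473 bp above the printed sequence, and those of Ephx1 and Ptgr1 lie farther away, so the windows do not cover the bound intervals of these 4 genes.

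The Aox1 window held TGACTCA, a match to TGANTCA, the palindromic core that AP-1 proteins and Maf dimers share and that overlaps the first bases of the longer motifs. This motif was added after the sequences were seen. It occupied bases 31 to 37 of the window (chromosome 1, 58029749 to 58029755), 5 bp from the listed interval position at base 42. Of all windows 7.81% held TGANTCA, and of the 168 with an interval position 20.8%. Of all listed positions 95.5% are multiples of 16, so distances of a few bases are not resolved, and a match is only a description of the letters.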

How the data were processed

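Nrf2 ChIP-seq of mouse esophagus was deposited as 1 table for 3 libraries. The submitters' processing notes name BWA, MACS2 2.1.0 and mm10, without parameters, scaling or depth. Per the file headers, the deposited signal is an average peak height per gene with a flag for a called interval. In the 1681 genes with 1 active region 100% of heights were whole numbers.

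The 1727 intervals were placed from gene start, strand and listed distance, merged to the stated number of active regions (1684, largest distance merged 704 bp), and grouped where listed under the same genes. The gene means were then solved for the heights of the resulting 1460 loci by least squares (largest residual 0.00186). The solver was tested on simulated data. At 3 loci, none of them an enzyme locus, the sum of heights was not whole.

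Ratios are log2 with a pseudocount of 1. No test was made, since each genotype had 1 library, and 2-fold describes size only. Unknown depth means that no counting interval can be given. Genes were matched by GeneID to RefSeq GRCm38.p6 (1878 of 1940), which also supplied the sequences. The table names positions as upstream, in gene or downstream, without exons. Named were the 5 genes, genes sharing an interval or lying nearest, list genes with a locus, and the 2 loci nearest in pattern to each gene. The pattern search left out loci of the 5 genes. The members and lists were chosen with earlier results of these data known. Analyses used Python 3.11.15, numpy 2.4.6 and pandas 2.3.3.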

Additional observations from a re-analysis of the deposited data

How the results depend on the processing

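No paired analysis was possible because there is a single library of each genotype. Unknown depth limits every ratio between libraries. A log2 value counts as moved when it changed by more than a factor of 1.5 in fold, as does a count that changed by more than 1.5 times. None of the 122 values under an alternative changed sign, and 87 did not move. Dividing each library by its own median height gave median log2 ratios over the 7 loci of 0.32 for Keap1KO over wild-type (3 loci at least 2-fold higher) and 0.79 for Keap1KO over Nrf2KO (3 loci), with 0 loci 2-fold higher for wild-type over Nrf2KO. This setting removes the difference of the medians by construction. Under it 9.11% of all loci were 2-fold higher for Keap1KO over wild-type, 17.7% for Keap1KO over Nrf2KO and 13.3% for wild-type over Nrf2KO. The loci that stayed 2-fold higher were Nqo1 and the Aox1 start in both Keap1KO comparisons, with Ptgr1 over wild-type and Cbr3 over Nrf2KO. A pseudocount of 5 shrinks ratios by construction and gave 1.96 for Keap1KO over Nrf2KO. For wild-type over Nrf2KO it gave 0 loci 2-fold higher, against 3.97% of all loci. A filter on mean height at its median, which leaves out 2 of the 7 loci, gave 2.86 for Keap1KO over wild-type. Over all loci that passed it the median was 1.74. Loci within 1 kb of a start, a setting chosen after seeing the data, leaves 3 and gave 2.86 over wild-type and 3.27 over Nrf2KO. Over all 454 loci within 1 kb the medians were 1.42 and 1.29. The 3 enzyme loci were all 2-fold higher in both comparisons, as were 76.2% and 66.1% of the 454. With TGANTCA, also chosen after seeing the data, 1 enzyme promoter held the motif in place of 0.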

Other observations

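Interval numbers in the table run along the chromosomes, and 1059 of the 2730 Keap1KO numbers (38.8%) have no row, with no reason given. Each of the 5 genes stood beside at least 1 absent number, 7 in all, and 6 of the 8 intervals did, where 55.4% of all listed intervals stand next to an absent number. The order of the numbers bounds where an absent interval can lie. Number 1049 falls in the 43920 bp between the Gm5678 interval and the Cbr3 interval, on the side of Cbr3 that faces Cbr1, and beyond the end of Cbr1. Number 2520 falls in the 633936 bp before the Nqo1 interval and number 1769 in the 3695968 bp after that of Ptgr1. These intervals have no heights in the table and were not analysed here.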
